A study of Mus musculus with 10 samples.

Results

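The cellular genes of both driver oncogenes of a mouse leukaemia model, Myc and Bcl2, were examined for DNA methylation and for read depth. Members were all CpGs listed on mm9 between 61812000 and 61826000 of chromosome 15 (the Myc interval) and between 108430000 and 108616000 of chromosome 1 (the Bcl2 interval). After the strands of each CpG had been joined, 242 CpGs lay in the Myc interval and 518 in the Bcl2 interval, 760 of 5837757 CpGs in the series.

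Reduced representation bisulfite sequencing, which reads MspI-cut fragments after conversion of unmethylated cytosine, was applied to genomic DNA of leukaemic mouse spleen in 10 libraries. MLL-AF9 leukaemia was sampled as c-kit+ cells, with 3 WT libraries and 3 libraries carrying a Dnmt3b knockin. Leukaemia driven by cMyc and Bcl2 was sampled as spleen cells with no sort named, with 2 WT and 2 knockin libraries. The knockin is inducible with tetracycline and is described as giving high Dnmt3b, a de novo DNA methyltransferase. Strain, age, inducer and time of harvest are not stated in the labels, and neither are pooling of animals, the vector that carried the oncogenes or the species of the introduced sequence. Expression of Dnmt3b was not analysed here, so the knockin label has no check of its own. The model therefore cannot be told apart from the c-kit sort. Nothing says that replicates came from separate animals, so p-values measure the spread between these samples, which may be technical.

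Myc is a transcription factor that pairs with Max and drives growth and division, and its family includes the repressive Mxd proteins. Bcl2 is a guardian of the mitochondrial outer membrane, which restrains the pore formers Bax and Bak1 and is itself bound by BH3-only proteins. Together they are a known oncogenic pair, since Bcl2 blocks the cell death that excess Myc provokes. CpG-rich gene starts of active genes are usually free of methylation, whereas CpG-poor gene bodies are usually methylated.

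The Bcl2 start could be placed on mm9 because the spacing of CpGs in its RefSeq promoter sequence (GRCm38.p6) matched all 85 of 85 strand positions listed there. It lies at 108610867 on the minus strand. The 250 bases before it are shown because the windows with the lowest methylation and one of the depth differences fall on or beside them. CpGs are in capitals. This stretch is chr1:108610868-108611117, 5′ to 3′ along the gene.
Bcl2 promoter: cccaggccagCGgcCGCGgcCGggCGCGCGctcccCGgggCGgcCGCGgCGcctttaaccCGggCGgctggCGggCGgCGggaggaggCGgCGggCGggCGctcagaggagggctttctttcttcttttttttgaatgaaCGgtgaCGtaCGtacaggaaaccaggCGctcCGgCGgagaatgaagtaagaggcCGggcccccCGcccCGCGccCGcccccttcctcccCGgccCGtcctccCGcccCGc
It holds 36 CpGs, all listed, and 6 CCGG sites, the MspI site. CCGG, which reads the same on both strands, was found in 52.8% of 32851 RefSeq promoter sequences of 300 bases, and 2.25% of them held at least as many CpGs as the 44 of Bcl2. Myc has no entry in the promoter table, so its start was not placed and its windows are given by position only. Exons and introns were not analysed here.

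Depth differed between the models across the whole assay. The libraries held 14446933 to 46762220 read calls, with 11.5 to 25.3 calls per listed position in cMyc-Bcl2 and 5.91 to 9.35 in MLL-AF9. A methylated call rate of 0.910 to 3.20% on mitochondrial CpGs gives a guide to incomplete conversion. It is not a floor of detection, since levels below it were read. The Bcl2 promoter read 0.465% in cMyc-Bcl2 WT replicate 1, whose mitochondrial rate was 2.22%. Whether differences among such low levels reflect methylation or conversion was not tested. Chromosome 15 stood apart in cMyc-Bcl2. Its share of reads, relative to the mean of all libraries, was 1.25 in WT replicate 2 and 1.11 in knockin replicate 1, against 0.942 and 0.945 in the other two and 0.954 to 0.967 in the 6 MLL-AF9 libraries. On chromosome 1 the range was 0.948 to 1.09. Reads can be copies of one molecule, so their number limits only the counting error.

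Methylation of the Myc interval was low except at its left edge, and only 28 of its 242 CpGs reached 10 reads in every one of the 10 libraries. Of 13 1-kb windows with a listed CpG, 5 had at least 10 reads in every library. In window chr15:61813001-61814000, with 9 listed CpGs, levels over all reads were 31.8, 23.9 and 20.6% in MLL-AF9 WT, 50.7, 6.86 and 18.8% in MLL-AF9 knockin, 23.5 and 20.7% in cMyc-Bcl2 WT and 33.9 and 22.1% in cMyc-Bcl2 knockin. The MLL-AF9 knockin libraries thus spanned both the highest and the lowest level of this window. Windows chr15:61815001-61816000, chr15:61816001-61817000 and chr15:61818001-61819000 lay between 0 and 4% in every library. In the last of these, both cMyc-Bcl2 knockin libraries (1.88 and 3.20%) were above all 6 MLL-AF9 libraries (0.852 to 1.46%). The cMyc-Bcl2 WT libraries read 2.17 and 1.13%, overlapping both. Each of the 6 MLL-AF9 levels was below that library's own mitochondrial rate (1.82 to 3.20%), the guide to incomplete conversion.

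Window chr15:61817001-61818000, with 50 listed CpGs, was the exception among these low windows. Its levels were 1.10, 1.58 and 2.08% in MLL-AF9 WT and 3.11, 4.85 and 2.78% in MLL-AF9 knockin. In cMyc-Bcl2 they were 3.62 and 3.06% in WT and 6.59 and 9.96% in knockin. The knockin libraries were above the WT libraries within each model without overlap, and the cMyc-Bcl2 knockin libraries were the highest of all. For methylation, the share of all windows without such overlap was not counted, here and for the windows below. On its 4 CpGs that reached 10 reads in every library, the knockin difference of group means was 5.54 points (adjusted p = 0.0544). The p-value is from the additive fit, a quasi-binomial model of reads per window with limma-moderated dispersion and Benjamini-Hochberg adjustment over the genome. The difference of cMyc-Bcl2 from MLL-AF9, tested in the same fit, was 6.57 points (adjusted p = 0.0247). A call was defined as an adjusted p under 0.05 with a difference of at least 10 points, so neither was called. The adjusted p of the second difference was 0.0176 at a minimum of 5 reads, 0.0921 by limma on M-values and 0.0995 with strands kept apart. It ran from 0.0224 to 0.103 when 1 library was left out, and exceeded 0.05 without cMyc-Bcl2 knockin replicate 2 (0.103), MLL-AF9 knockin replicate 1 (0.0592) or MLL-AF9 knockin replicate 3 (0.0828). The 4 fitted CpGs lie between 61817505 and 61817565, a small part of the window. Over all reads of the window the differences were smaller, 3.46 points for knockin and 3.22 points for the model.

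Levels of single CpGs of that window, among those fitted and chosen after their values were seen, ran in opposite ways at low depth. The CpG at 61817561 was methylated in 8.70 and 13.8% of reads in cMyc-Bcl2 WT and in 25.9 and 48.5% in cMyc-Bcl2 knockin, and in 0% in all 6 MLL-AF9 libraries. Its depth was 12 to 58 reads, so 0 methylated reads at the lowest depth allows a level of up to 25% (3 reads of the total, counting error only). The CpG at 61817505 was methylated in 6.90, 10.5 and 8.33% of reads in the MLL-AF9 knockin libraries, in 0% in MLL-AF9 WT, in 4.35 and 2.33% in cMyc-Bcl2 WT and in 0% in cMyc-Bcl2 knockin. Its depth was 13 to 45 reads, where 0 at the lowest depth allows up to 23.1%. The levels of this CpG thus rest on few methylated reads.

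**Figure D1:**
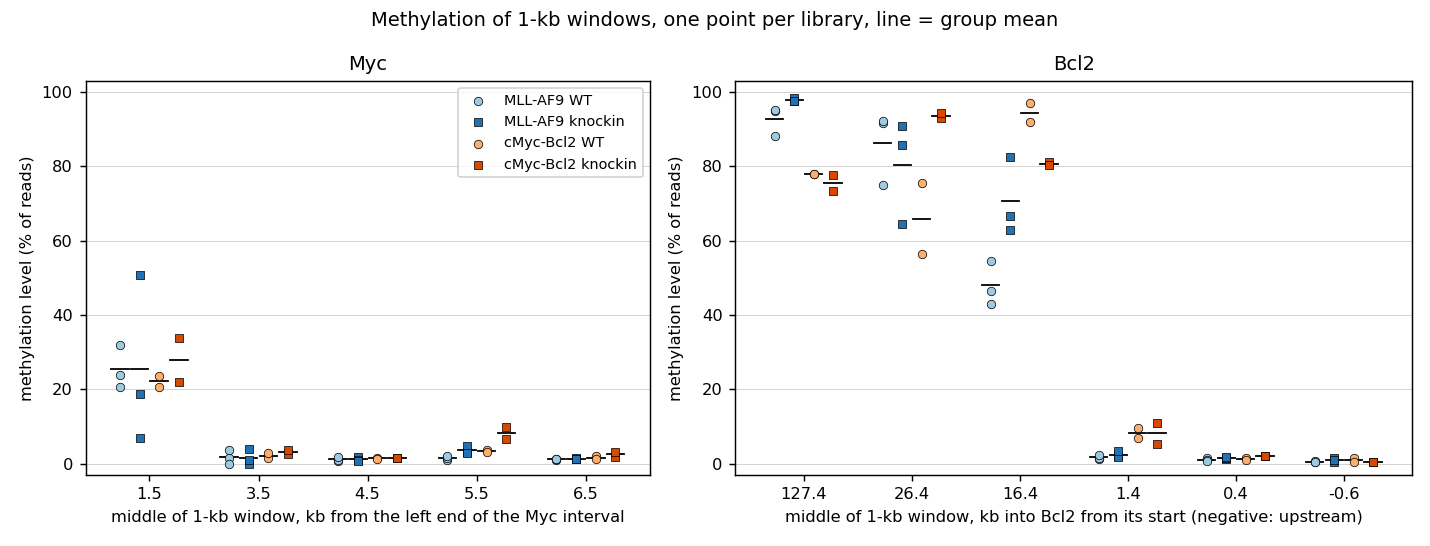
Methylation level (% of reads) of each 1-kb window with at least 10 reads in every library, by distance from the left end of the Myc interval or from the Bcl2 start, with 1 point per library and a line at each group mean. Myc windows stay under 10% except the leftmost. Bcl2 windows split between those at or near the start (under 11%) and those further into the gene (43.0 to 98.3%).

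In the Bcl2 interval, 20 of 518 CpGs reached 10 reads in every library, and 6 of 128 windows with a listed CpG had at least 10 reads in every library. The window with the start, chr1:108610001-108611000, lay between 0.749 and 2.09% in the 10 libraries. The window upstream, chr1:108611001-108612000, lay between 0.312 and 1.61%. Over the 300-base promoter stretch itself, at 367 to 1052 reads, levels were 0.725% ± 0.265 in MLL-AF9 WT (SD, n = 3), 1.05% ± 0.444 in MLL-AF9 knockin (n = 3), 0.565% ± 0.142 in cMyc-Bcl2 WT (n = 2) and 0.443% ± 0.0222 in cMyc-Bcl2 knockin (n = 2). In each library the level was below that library's own mitochondrial rate.

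One window inside the gene, chr1:108609001-108610000, whose middle lies 1.37 kb from the start, had higher levels in cMyc-Bcl2. Levels of 6.90 and 9.68% were read in cMyc-Bcl2 WT and of 10.9 and 5.33% in cMyc-Bcl2 knockin. In MLL-AF9 it read 1.32, 1.60 and 2.41% in WT and 1.95, 1.73 and 3.42% in knockin. The 4 cMyc-Bcl2 libraries did not overlap the 6 MLL-AF9 libraries, while the genotypes overlapped within cMyc-Bcl2. It had too few deep CpGs for the fit at 10 reads, and at 5 reads the difference of the models was 6.96 points (adjusted p = 0.00658, same quasi-binomial fit). Its CpG at 108609212, chosen after its values were seen, was methylated in 11.5 and 8.33% of reads in cMyc-Bcl2 WT, in 6.59 and 9.88% in cMyc-Bcl2 knockin and in 0% in all 6 MLL-AF9 libraries, at 10 to 96 reads, where 0 at the lowest depth allows up to 30%.

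**Figure D2:**
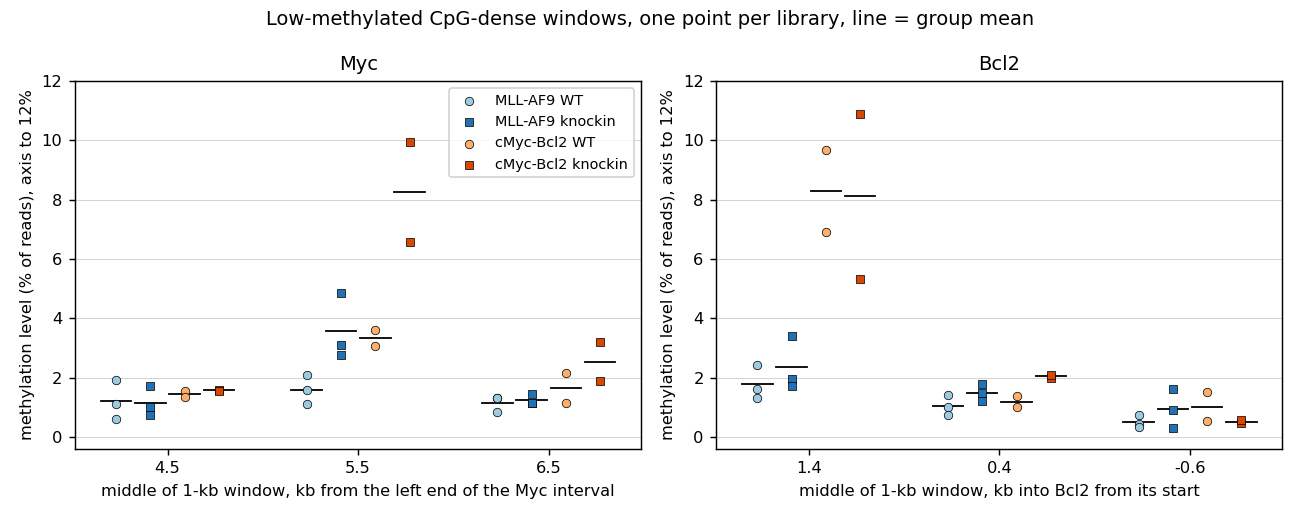
Methylation level (% of reads, axis to 12%) of the Myc and Bcl2 windows with at least 30 listed CpGs, with 1 point per library and a line at each group mean. The Myc window at 5.5 kb reaches 9.96% in a cMyc-Bcl2 knockin library, and the Bcl2 window at 1.4 kb separates the models (5.33 to 10.9% against 1.32 to 3.42%).

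Windows 16.4 kb and more into Bcl2 with at least 10 reads in every library read 43.0 to 98.3%. Differences between models ran in both directions. Window chr1:108483001-108484000, 127 kb into the gene, read 88.2, 95.0 and 95.2% in MLL-AF9 WT and 97.5, 98.3 and 97.7% in MLL-AF9 knockin, and 78.1 and 78.0% in cMyc-Bcl2 WT and 77.8 and 73.3% in cMyc-Bcl2 knockin. The models did not overlap, at 27 to 174 reads. At a minimum of 5 reads this window was called lower in cMyc-Bcl2, by 18.8 points (difference -18.8, adjusted p = 0.00899, quasi-binomial fit), but at 10 reads it could not be tested. Its CpGs did not move together. The CpG at 108483248 was methylated in 26.7 to 57.1% of reads in cMyc-Bcl2 and 86.7 to 100% in MLL-AF9. The CpG at 108483303 was also lower in cMyc-Bcl2, at 50 to 66.7% against 81.8 to 100%. Between them, the CpG at 108483283 was methylated in 97.4 to 100% and 82.1 to 100%, and that at 108483293 in 97.4 to 100% and 89.3 to 100%. The shallowest library had only 6 or 7 reads at each of these CpGs.

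Window chr1:108594001-108595000 ran the other way. It read 54.5, 43.0 and 46.5% in MLL-AF9 WT, 82.5, 62.8 and 66.7% in MLL-AF9 knockin, 97 and 91.9% in cMyc-Bcl2 WT and 81.1 and 80.4% in cMyc-Bcl2 knockin, at 11 to 165 reads. Knockin libraries were higher than WT in MLL-AF9 and lower in cMyc-Bcl2, with no overlap in either model, and no fit tested it. This window has 5 listed CpGs, and how many windows of the genome separate in this way was not counted. Window chr1:108584001-108585000 read 75.5 and 56.3% in cMyc-Bcl2 WT and 93.1 and 94.3% in cMyc-Bcl2 knockin. Over its tested CpGs the difference of group means was 26.6 points (adjusted p = 0.379, quasi-binomial fit). This difference was 12.4 points without WT replicate 2 and 38.9 points without WT replicate 1. In MLL-AF9 the genotypes of this window overlapped between 64.6 and 92.3%.

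At a minimum of 10 reads, no window of either interval was called for methylation. The fit within MLL-AF9 tested 7 windows of the intervals and called 0, with 0 at an unadjusted p under 0.05. Over the genome 0.0621% of windows were called higher and 0.00327% lower. The fit within cMyc-Bcl2 tested 10 and called 0, with 1 at an unadjusted p under 0.05, against 0.0018% higher and 0% lower over the genome. For the knockin term of both models, 5 windows were tested, 0 called and 1 had an unadjusted p under 0.05, against 4.1% higher and 0.0333% lower. For the model term, 5 were tested, 0 called and 1 had an unadjusted p under 0.05, against 3.72% higher and 1.67% lower. The interaction of model and knockin was called in 0 of 5, with 0 at an unadjusted p under 0.05, and in 0% of windows over the genome. limma on M-values called 0 in each of these fits as well. With this few tested windows, counts near 0 do not set the intervals apart from the genome.

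Mean methylation of the deep CpGs, each weighted once, did not differ detectably between genotypes. In MLL-AF9 the Myc interval (32 CpGs) had 3.08, 3.72 and 2.73% in WT and 5.09, 2.45 and 2.32% in knockin, with overlap. The difference was 0.11 points (two-sided exact permutation p = 1, smallest possible 0.1). In cMyc-Bcl2 it (55 CpGs) had 3.66 and 3.14% in WT and 5.81 and 6.14% in knockin, without overlap. The difference was 2.57 points, at the smallest p that 2 against 2 libraries can give (exact permutation p = 0.333). Over both models the Myc difference was 1.51 points (exact permutation p = 0.167), and cMyc-Bcl2 exceeded MLL-AF9 by 1.55 points (exact permutation p = 0.14). With strands kept apart these were 3.16 and 4.04 points, and in CpG-sparse windows 2.89 and 0.58 points. The first was 0.943 points at a minimum of 20 reads and 0.982 points without MLL-AF9 knockin replicate 1.

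For Bcl2 in MLL-AF9 (25 CpGs), means were 19.1, 20.6 and 20.3% in WT and 19.5, 21.9 and 19.6% in knockin, a difference of 0.29 points (exact permutation p = 0.8). In cMyc-Bcl2 (55 CpGs) they were 15.3 and 11.9% in WT and 16.0 and 14% in knockin, a difference of 1.38 points (exact permutation p = 0.667). Both pairs of genotypes overlapped. Over both models the difference was 1.47 points (exact permutation p = 0.45), and cMyc-Bcl2 exceeded MLL-AF9 by 0.24 points (exact permutation p = 0.82). That last value became 4.05 points (exact permutation p = 0.01) with strands kept apart and -7.60 in CpG-sparse windows.

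In the 1 Mb on each side the group means of the same measure were higher in knockin. Around Myc (17 deep CpGs) it was 81.1% ± 0.0433 in MLL-AF9 WT and 86.3% ± 0.818 in MLL-AF9 knockin (SD, n = 3 each), and 81.3% ± 4.43 and 88.2% ± 1.31 in cMyc-Bcl2 (n = 2 each). Around Bcl2 (216 deep CpGs) it was 9.82% ± 0.722 and 11.4% ± 0.0650, and 10.4% ± 2.34 and 12% ± 1.36, in the same order. These flanks were not tested.

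Read depth was compared because reads from introduced copies could add to those of the cellular genes. The labels do not give the introduced sequence and exons were not placed. Copies of a short part of a gene could therefore go unseen over a whole interval. In RPM (reads scaled to a total of 1000000 autosomal calls), the Myc interval held 70.4, 70.5, 80.4 and 72.4 in cMyc-Bcl2 (WT replicate 1, knockin replicate 1, WT replicate 2 and knockin replicate 2), against 72.8, 50.0 and 56.1 in MLL-AF9 WT and 63.3, 52.0 and 70.3 in MLL-AF9 knockin. One MLL-AF9 WT library exceeded 3 of the 4 cMyc-Bcl2 libraries. The flanks of Myc held 76.3 to 166 RPM in cMyc-Bcl2 and 95.1 to 130 in MLL-AF9. Depth of the interval over its flanks was 1.25-fold in cMyc-Bcl2 over MLL-AF9 (log2 difference 0.33, exact permutation p = 0.24), less than the spread between libraries. The log2 difference was 0.14 without cMyc-Bcl2 WT replicate 2, 0.20 without MLL-AF9 WT replicate 2 and 0.52 without cMyc-Bcl2 WT replicate 1. It was 0.15 against the chromosome, 0.18 with flanks of 500 kb and 0.21 as a median over CpGs.

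The Bcl2 interval held 85.6, 59.4, 61.4 and 59.2 RPM in cMyc-Bcl2, in the same order, and 61.4 to 76.5 in MLL-AF9. Only WT replicate 1 of cMyc-Bcl2 was above MLL-AF9. Over the flanks, which held 571.5 to 600.5 and 608 to 681 RPM, the ratio was 1.10-fold (log2 difference 0.13, exact permutation p = 0.3). Between genotypes the same ratios differed by 0.27 (log2, exact permutation p = 0.433) for Myc and by -0.12 (exact permutation p = 0.5) for Bcl2, knockin over WT.

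**Figure D3:**
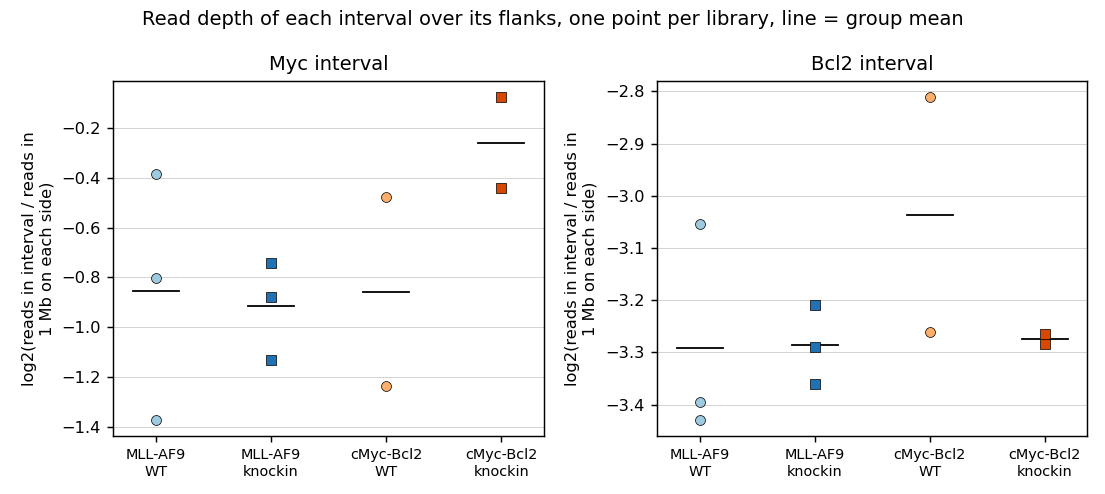
Log2 ratio of reads in each interval to reads in the 1 Mb on each side of it, with 1 point per library and a line at each group mean. The groups overlap in both panels, and cMyc-Bcl2 WT replicate 1 is the highest point for Bcl2 and among the lowest for Myc.

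Window by window, depth was tested with limma on log2(RPM + 0.1) over 132527 windows, with a call at an adjusted p under 0.05 and a fold of at least 1.5. In Myc 1 of 5 tested windows was called, higher in cMyc-Bcl2. In Bcl2 4 of 9 were called, 2 higher and 2 lower. Over the genome 17.2% were called higher and 17.9% lower, and among the flank windows 24.4% and 22% of 41 around Myc and 12.1% and 19% of 58 around Bcl2. The share called in the intervals, 3 higher and 2 lower of 14, was near this background. The knockin term of the same fit called 0 of 14 (0 at an unadjusted p under 0.05) and 0% of windows over the genome.

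The Myc window called was chr15:61817001-61818000, described above for its methylation. It held 22, 18.8, 21.3 and 18.4 RPM in cMyc-Bcl2, against 10.9, 10.2 and 10.2 in MLL-AF9 WT and 14.8, 12.1 and 12.7 in MLL-AF9 knockin. The models did not overlap, which over the genome held for 12.3% of windows in this direction. The fold was 1.59 (log2 0.67, SE 0.20, limma adjusted p = 0.0157), and the call held in 10 of 10 fits that left out 1 library. Depth was scaled here to the library and not to chromosome 15. The share of that chromosome was 1.25 in cMyc-Bcl2 WT replicate 2 and 1.11 in knockin replicate 1. It was 0.945 in WT replicate 1 and 0.942 in knockin replicate 2, where the window held 22 and 18.4 RPM. The part of this share in the fold was not tested. The depth folds of the other Myc windows were 1.34 at 61815001 (adjusted p = 0.285), 1.11 at 61816001 (0.658), 0.968 at 61813001 (0.901) and 0.925 at 61818001 (0.781), all by limma.

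In Bcl2, window chr1:108609001-108610000, whose methylation was also higher in cMyc-Bcl2, was called higher in depth. It held 14.7, 18.3, 15.7 and 17.9 RPM in cMyc-Bcl2, against 4.58, 10.1 and 5.85 in MLL-AF9 WT and 8.86, 10.6 and 3.75 in MLL-AF9 knockin, without overlap. The fold was 2.27 (log2 1.18, SE 0.27, limma adjusted p = 0.00472), called in 10 of 10 fits without 1 library. The neighbouring window with the Bcl2 start had a fold of 1.10 (adjusted p = 0.571, limma).

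Upstream of the start, window chr1:108611001-108612000 was called lower in cMyc-Bcl2. It held 12, 15.1, 16.0 and 13.3 RPM there and 18.5 to 28.0 in MLL-AF9, without overlap, as did 12.9% of windows over the genome in this direction. The fold was 0.579 (adjusted p = 0.0220, limma). Without cMyc-Bcl2 WT replicate 1 the adjusted p was 0.0969 (0.0158 to 0.0969 over all 10 such fits), and with no filter on low windows it was 0.890. In the gene body, 108483001 was called lower (fold 0.334, adjusted p = 0.00546, and 0.226 with no filter on low windows, limma), at 5.29, 0.619, 1.28 and 1.51 RPM in cMyc-Bcl2 and 4.03 to 5.57 in MLL-AF9, where WT replicate 1 of cMyc-Bcl2 overlapped MLL-AF9. Window 108526001 was called higher (fold 3.70, adjusted p = 0.0164, limma) at 8.88, 1.33, 0.827 and 2.39 RPM against 0.230 to 1.09. WT replicate 1 was the highest library. The log2 difference was 1.89 with all libraries, 1.39 without WT replicate 1 (adjusted p = 0.0669, limma) and 1.77 without knockin replicate 2 (adjusted p = 0.0705), and neither of these fits made the call. Over the 10 fits without 1 library the adjusted p ran from 0.00490 to 0.0705. Not called were 108519001 (fold 2.58, adjusted p = 0.0776) and 108594001 (fold 0.654, adjusted p = 0.361, limma).

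Depth differences were narrow. Of 13 250-bp windows tested in the Myc interval, 4 were called higher and 0 lower, and of 13 in Bcl2, 3 higher and 2 lower, against 18.2% higher and 16.6% lower over the genome. At 61816501 RPM were 9.50, 2.86, 6.02 and 3.10 in cMyc-Bcl2 and 0.518 to 1.93 in MLL-AF9 (fold 5.09), whereas the next 250 bases, at 61816751, held 8.99 to 15.7 and 8.53 to 18.8 (fold 0.989). At 61817251 they were 8.30, 7.74, 6.20 and 4.73 against 0.352 to 3.27 (fold 3.79), and at 61817501 they were 7.47 to 11.4 and 5.39 to 10.7 (fold 1.08). The models were separate at the first of each pair and overlapped at the second. At 61815001 the fold was 4.83 and at 61817751 it was 2.62.

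In Bcl2, the 250 bases at 108609251 held 8.95, 7.63, 4.72 and 8.08 RPM in cMyc-Bcl2 and 0.769 to 3.64 in MLL-AF9 (fold 3.03). Those at 108609001 held 5.76 to 11 and 2.98 to 6.83 (fold 1.82), with overlap. Closer to the start, at 108610251 and 108610751, folds were 1.04 and 1.11. The higher depth in cMyc-Bcl2 was thus not spread evenly over either interval, and its relation to introduced copies was not tested. Of strand positions with a mean of at least 10 reads in cMyc-Bcl2, those without any read in all 6 MLL-AF9 libraries were 1 of 87 (1.15%) in Myc and 3 of 71 (4.23%) in Bcl2, against 2.97% over the autosomes.

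**Figure D4:**
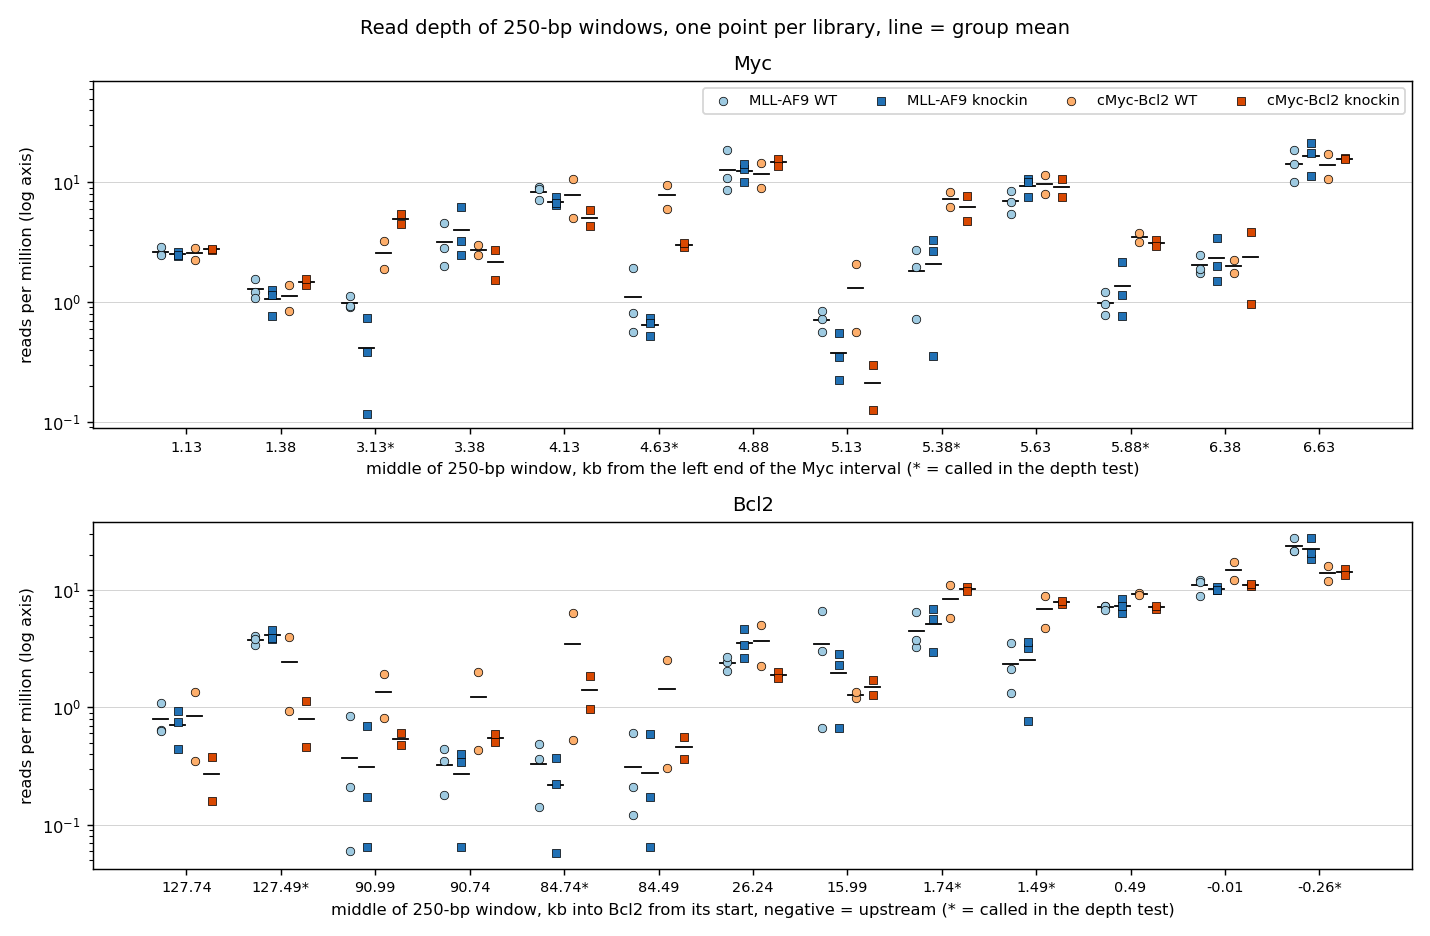
RPM (log axis) in 250-bp windows of both intervals, with 1 point per library, a line at each group mean and a star at windows called in the depth test. Called windows, such as those of Myc with folds of 5.09 and 3.79, stand next to windows where the models overlap.

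Both windows whose depth was called higher with a methylation test were, taken whole, also higher in methylation. Among 42951 windows with both tests (methylation at a minimum of 5 reads), 6.31% had higher methylation in cMyc-Bcl2 at an adjusted p under 0.05, with no minimum difference, and 0.233% (100 windows) had this together with a depth call higher. In the intervals it was 2 of 10, chr15:61817001-61818000 (4.07 points at this minimum, adjusted p = 0.0176) and chr1:108609001-108610000 (6.96 points, adjusted p = 0.00658), by the quasi-binomial fit. This pairing was looked for after the values were seen and has no test of its own. Without cMyc-Bcl2 knockin replicate 2, or without MLL-AF9 knockin replicate 3, 1 of 10 was left, the Bcl2 window. In the Myc window, the CpGs with at least 5 reads in every library lie between 61817505 and 61817743. Depth from 61817501 to 61817750 had a fold of 1.08 (adjusted p = 0.789, limma). The depth calls lay on either side, at 61817251 (fold 3.79) and 61817751 (fold 2.62). The window's higher depth and tested methylation thus came from different bases. In the Bcl2 window such CpGs lie between 108609171 and 108609270, and depth was called at 108609001 (fold 1.82) and 108609251 (fold 3.03). Calls per position were also higher in cMyc-Bcl2 and the sort differed, and their part in these results was not tested.

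**Figure D5:**
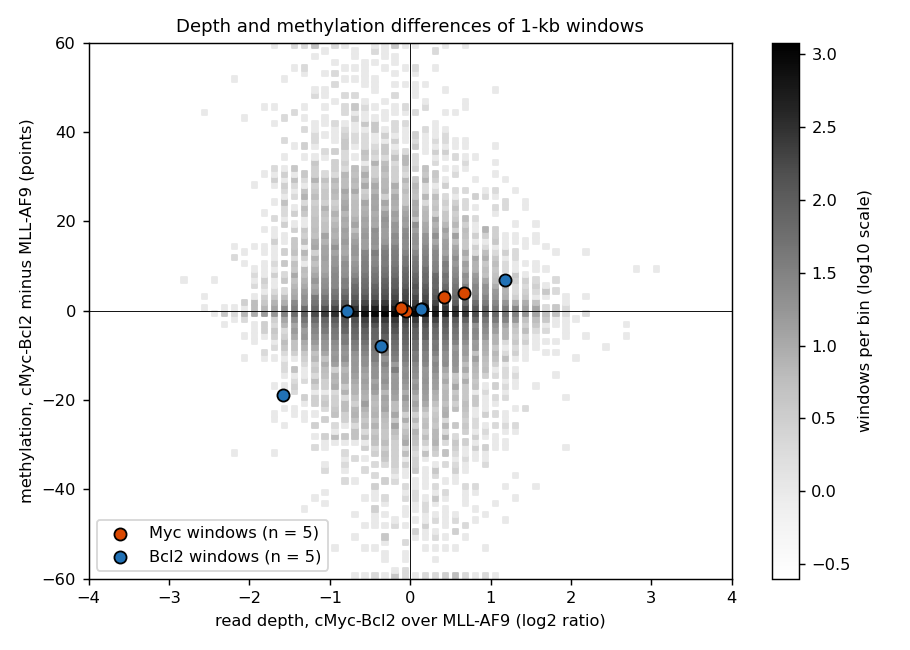
Difference of cMyc-Bcl2 from MLL-AF9 in read depth (log2 ratio) and in methylation (points) for 1-kb windows, in grey for all 42951 windows (differences beyond 60 points drawn at the edge) and in colour for 5 Myc and 5 Bcl2 windows. The Bcl2 window at the upper right (log2 1.18, 6.96 points) and a Myc window (log2 0.67, 4.07 points) are higher in both.

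Partners of Myc and relatives of Bcl2 were read from a list of 27 genes, of which 23 starts could be placed. Bcl2a1a, Bcl2l10, Bik and Pmaip1 were not placed. Of 19 promoters with at least 10 reads in every library, 18 stayed between 0 and 4.84% in every library. They include Max, the obligate partner of Myc (0.425 to 1.59%), Mcl1, a guardian like Bcl2 (0.275 to 1.41%), and Bcl2l11, the BH3-only protein Bim (0 to 2.34%). The promoter of Hrk, a BH3-only gene, was the exception among these 19. It read 1.49, 5.05 and 0.775% in MLL-AF9 WT and 8.62, 12.1 and 6.64% in MLL-AF9 knockin, without overlap, and 0.562 and 8.62% in cMyc-Bcl2 WT and 16.4 and 5.90% in cMyc-Bcl2 knockin, with overlap. In its start window the knockin difference over both models was 6.88 points (adjusted p = 0.0485, additive quasi-binomial fit), under the 10 points of a call. The promoter stretch of Mycn, a paralog of Myc, was not among the 19, with 3 reads in its shallowest library. Its start window differed between models by 8.16 points (adjusted p = 0.0403) and between genotypes by 6.58 points in the additive fit (adjusted p = 0.0637) and 12.4 points within cMyc-Bcl2 (adjusted p = 0.130, all quasi-binomial), and none of these was called.

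No start window of the list was called for methylation in any of the 5 fits (19 to 22 tested). Unadjusted p fell under 0.05 in 1 window within MLL-AF9, 2 within cMyc-Bcl2, 2 for each term of the additive fit and 1 for the interaction, and limma on M-values called 0. For depth, 3 of 23 were called higher in cMyc-Bcl2 and 3 lower, near the 17.2% and 17.9% of all windows. Higher were Mxd4 (log2 0.86, adjusted p = 0.0240), a Myc antagonist, Bok (log2 0.60, adjusted p = 0.0334), an effector, and Bmf (log2 0.80, adjusted p = 0.00599), a BH3-only gene. Lower were Mxd3 (log2 -0.94, adjusted p = 0.00566), Bcl2l1 (log2 -1.39, adjusted p = 0.000998), which encodes Bcl-xL, and Bax (log2 -0.86, adjusted p = 0.0452), all by limma. The cause of these depth differences was not tested.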

How the data were processed

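Genomic DNA of 10 leukaemic spleen libraries was profiled by reduced representation bisulfite sequencing. The submitters' processing notes name the mm9 build, Bismark 0.7.4, Trim Galore 0.2.2, CASAVA and methylKit, with settings not given in the sources used here. The deposited files hold, for every position, a pair of whole read counts (methylated and unmethylated), with the strands of a CpG apart. Strands were joined here.

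Windows of 1000 bp with at least 3 CpGs of at least 10 reads in every library were fitted on all autosomes with a quasi-binomial model (numpy 2.4.6), with limma 3.58.1 (R 4.3.3) moderating the dispersion, which was kept at or above 1. The model gave the p-values. Differences in points are between group means of library levels over the tested CpGs, averaged over models or genotypes for the additive fit. An edgeR test of depth was planned but not run, and limma was used instead on log2(RPM + 0.1), RPM being reads scaled to a total of 1000000 autosomal calls, with trimmed-mean scaling (30% of M, 5% of A), for windows with a mean of at least 0.5 RPM. Means and ratios to the 1 Mb flanks were tested by exact two-sided permutation, within model or genotype. Fits were tested on simulated data.

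Named windows were those called in any fit, the window of the start, the 3 largest methylation differences per fit and interval and the 3 largest and 3 smallest depth ratios. Single CpGs and 250-bp windows were chosen after their values were seen. Starts were placed by matching at least 10 CpG positions, 95% of those listed, to RefSeq sequences of 300 bases. Members and lists were chosen with earlier results of these data known. Coverage minimums, window sizes, scalings, filters and libraries were varied.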

Additional observations from a re-analysis of the deposited data

Results flagged for a closer look

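In window chr1:108483001-108484000, inside Bcl2, every knockin library of MLL-AF9 was above every WT library (difference 5.03 points). In cMyc-Bcl2, knockin read 77.8 and 73.3% (27 and 60 reads) against 78.1 and 78.0% in WT (146 and 59 reads). That difference was -2.47 points, and the order of 77.8% at 27 reads and 78.0% at 59 reads lies within counting error. The difference between the models in this knockin effect was not tested at 10 reads. At 5 reads the interaction was -6.98 points (adjusted p = 0.439, quasi-binomial fit with limma-moderated dispersion). In window chr1:108594001-108595000, also inside Bcl2, knockin differed from WT by 22.6 points in MLL-AF9 and by -13.7 points in cMyc-Bcl2. There was no overlap in either model. It has 5 listed CpGs, with 11 reads in its shallowest library, and it was not tested. For both windows, the share of all windows that separate in this way was not counted.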

How the results depend on the processing

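Differences of interval means were small and their sign often depended on the setting. For Myc in MLL-AF9 the knockin difference in points was -0.490 at a minimum of 20 reads, -0.178 with CpGs weighted by reads, -1.80 in CpG-sparse windows, -0.418 with strands apart and -0.792 to 0.592 without 1 library. For Bcl2 in MLL-AF9 it was -1.18 in CpG-sparse windows and -0.491 to 0.721 without 1 library. For Bcl2 in cMyc-Bcl2 it was -4.10 weighted, -0.120 with strands apart and -0.336 to 2.41 without 1 library. The Bcl2 difference between models was -1.23 at 5 reads, -7.60 in CpG-sparse windows, 4.05 with strands apart (exact permutation p = 0.01) and -0.929 to 1.51 without 1 library. Its depth difference (log2) was -0.0115 against the library, -0.0161 against the chromosome and -0.0859 over positions read in every library. The cause was not tested.

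Between models, 1 Bcl2 window was called for methylation at 5 reads. Depth calls in Myc rose to 4 with no filter and to 4 in 250-bp windows (1 to 2 without 1 library), and in Bcl2 to 10 with no filter (2 to 5). Windows higher in both depth and methylation numbered 1 to 2 without 1 library. With median-of-ratios scaling, chosen after seeing the data, the median depth difference over all windows moved from -0.0817 to 0.0357, and calls from 22798 higher and 23757 lower to 25905 and 19588.

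Single windows near 0 changed sign. With strands apart, 108610001 was -0.0781 points in MLL-AF9 and 61816001 was 0.486 for knockin. Depth at 108594001 was 0.0817 with no filter, at 61813001 0.0517 (library totals), 0.0715 (median of ratios), 0.677 (no filter) and -0.0981 to 0.248 without 1 library, and at 61818001 0.00939 (median of ratios), 0.626 (no filter) and -0.224 to 0.157. Without 1 library, methylation differences between models were -0.498 to 0.260 at 108611001 and -0.0436 to 0.615 at 61818001. In MLL-AF9 they were -0.130 to 0.988 at 108611001, -1.48 to 1.84 at 61815001 and -0.0365 to 0.646 at 61818001. For knockin in both models 108611001 ran from -0.0141 to 0.743, and in cMyc-Bcl2 108526001 ran from -14.3 to 11.1.

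The planned DESeq2 and edgeR fits of depth were not run, although sums of the pairs would have allowed them. Some settings left no windows and give no value. No paired analysis was possible because replicate numbers only follow accession order. Strand, scaling and joint-count alternatives were added after seeing the data. Few CpGs reached 10 reads in MLL-AF9, which sets the number of windows tested.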
